A study of Homo sapiens with 22 samples.

Results

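The survival and death genes of the BCL2 family were followed through 10 genes, BCL2, BCL2L1, MCL1, BCL2A1, BAX, BAK1, BCL2L11, BIK, BID and BAD. They were listed by symbol, with earlier results of these data known, and all 10 were found among the 59087 gene names of both count tables. RNA-Seq was performed on HUDEP-2 cells, an immortalized line of human erythroid progenitors, at D0 in expansion medium and at D6 of maturation in differentiation medium. The H2A.X experiment took 3 KO subclones and 2 WT ones at each day (10 libraries), and the BAZ1B experiment took 3 of each genotype (12 libraries). All groups grew with SCF, EPO and doxycycline, the D0 medium also held dexamethasone, and the D6 medium plasma, insulin and transferrin. The H2A.X KO lines carry a homozygous deletion that spans the coding sequence of the histone variant H2A.X, and the BAZ1B KO lines lack the first exon of BAZ1B, the kinase that phosphorylates H2A.X at its terminal tyrosine. Both deletions were made with paired CRISPR/Cas9 guides delivered by lentivirus, and the KO lines grew as colonies from cells diluted to an average of 1 per well. The p-values below measure the spread between libraries of the same genotype and day. The main fit did not pair the D0 and D6 libraries of a subclone. A difference between clones that owes nothing to the deletion cannot be told apart from the genotype.

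Proteins of the BCL2 family decide whether the outer mitochondrial membrane is opened, the step that releases cytochrome c and starts the caspase cascade. Survival members, here BCL2, BCL-XL (from BCL2L1), MCL1 and A1 (from BCL2A1), hold back the effectors BAX and BAK, which form the pores. BH3-only members, here BIM (from BCL2L11), BIK, BID and BAD, respond to stress or loss of growth factor signals and either block the survival proteins or activate the effectors. In the erythroid lineage BCL-XL is known for keeping maturing, hemoglobin-making erythroblasts alive, its transcription responds to EPO through STAT5 and to GATA1, and caspases are active during maturation without killing the cell. Gene counts measure transcripts only: splice forms of a gene are merged, such as the BCL2L1 forms with opposite function, and the control of BAD by phosphorylation, of BID by cleavage and of MCL1 by degradation leaves no trace in them.

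Library totals ranged from 11910141 to 21013004 counts in the H2A.X and from 33199408 to 41273244 in the BAZ1B experiment. The KO targets were lower in their own KO lines, H2AX (listed as H2AFX) by 1.499 on the log2 scale at D0 (edgeR adjusted p = 0.0304) and BAZ1B by 0.40 (adjusted p = 0.00415), though reads on neither gene vanished. Erythroid identity was clear from the markers, since 12 erythroid markers, globins and heme enzymes among them, together took 6512 to 72650 CPM (a gene's counts scaled to the library's total) in every library, with no read only for HBG1 in BAZ1B KO at D0. Markers of mast cells and eosinophils took 3.08 to 620 CPM, with CMA1 at 0 in every group and CPA3 at 0 in H2A.X WT at D0, while 8 neutrophil and monocyte markers took at most 7.47 CPM and 7 lymphoid markers at most 1.43 CPM. The 6 megakaryocyte markers took 1.42 to 75.7 CPM, with no read of PF4 or PPBP in any group. In the BAZ1B experiment, all 12 erythroid markers were higher at D6 than at D0 in both genotypes. In the H2A.X experiment, 11 of them were higher at D6 in KO and 0 passed the test in WT. The H2A.X WT libraries therefore enter the day comparison with 24096 to 33358 CPM of erythroid markers at D0, against 6512 to 7268 CPM in BAZ1B WT. Replicate 3 of H2A.X KO at D6 stood apart from the other 2 KO libraries of its day on the second principal component (-38.2 against -73.0 and -91.4), and results of the members that rest on it are also given without it. The column names of 5 of the 6 H2A.X KO libraries, and of no WT library, carry the word redo, whose meaning is not given in the sources used here.

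Levels of the 10 genes are compared with each other only per length, as CPM per kilobase of all annotated exons of a gene, and carry no test between genes. In BAZ1B WT at D0, the effector BAX stood highest at 57.8 ± 1.48 CPM per kb (SD, n = 3). MCL1 at 27.2 ± 0.459 and BCL2L1 at 26.5 ± 0.579 followed, and the ranges of these survival genes overlapped. BCL2L11 came next at 12.2 ± 0.689 CPM per kb, then BIK at 7.95 ± 0.30, BAK1 at 7.39 ± 0.344 and BID at 7.19 ± 0.269, with overlapping ranges of BAK1 and BID. This order of the middle genes turns with the length used: over the longest transcript of each gene BID stood above BIK, with 28.6% ± 1.118 of the summed BH3-only level against 17.8% ± 0.491. BAD was lower at 5.38 ± 0.274 CPM per kb, and BCL2 lay far below at 0.161 ± 0.0232. Among the 4 listed survival genes, BCL2L1 and MCL1 transcripts thus made up nearly equal parts, 49.2% ± 0.593 and 50.5% ± 0.565 of the summed level, with 0.30% ± 0.047 from BCL2. BCL2 family genes outside the 10 members are not in this sum. BCL2A1, a survival gene known from leukocytes, had 0 reads in each of the 10 H2A.X libraries, which allows a level of up to 0.143 to 0.252 CPM (3 reads, counting error only). In the BAZ1B experiment it had 1 read in each of 2 libraries and 0 in the other 10. BCL2A1 did not pass the filter on low counts in either experiment, so 9 of the 10 members were tested in each.

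By D6 this order had changed. BCL2L1 stood first in BAZ1B WT at 56.4 ± 2.83 CPM per kb, ahead of BAX at 31.9 ± 0.689 and MCL1 at 30.3 ± 0.522, and BAD with 10.9 ± 0.871 was now above BID with 6.21 ± 0.524, BAK1 with 4.86 ± 0.0822 and BIK with 1.54 ± 0.157. No neighbours in this D6 order overlapped in range. The ratio of BCL2L1 to BAX levels was 0.459 ± 0.0148 at D0 and 1.77 ± 0.0521 at D6, and in BAZ1B KO it was 0.395 ± 0.0640 and 1.34 ± 0.0740. The ratio depends on the length used: with the longest transcript of each gene in place of all exons it was 1.195 ± 0.0353 in WT and 0.907 ± 0.0501 in KO at D6, so BAX stayed above BCL2L1 in KO by that measure. In H2A.X WT the ratio was 0.534 ± 0.130 at D0 and 0.756 ± 0.00876 at D6 (n = 2), and in H2A.X KO 0.549 ± 0.0712 and 1.90 ± 0.876 (n = 3), with the D6 libraries running from 0.947 to 2.67. Among the BH3-only genes of BAZ1B WT, again over all exons, the share of BIK was 24.3% ± 0.678 at D0 and 4.73% ± 0.412 at D6 and that of BAD 16.5% ± 0.838 and 33.5% ± 1.53, whereas BID made up 22.0% ± 0.877 and 19.1% ± 2.197 and BCL2L11 37.3% ± 1.07 and 42.7% ± 0.943.

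**Figure D1:**
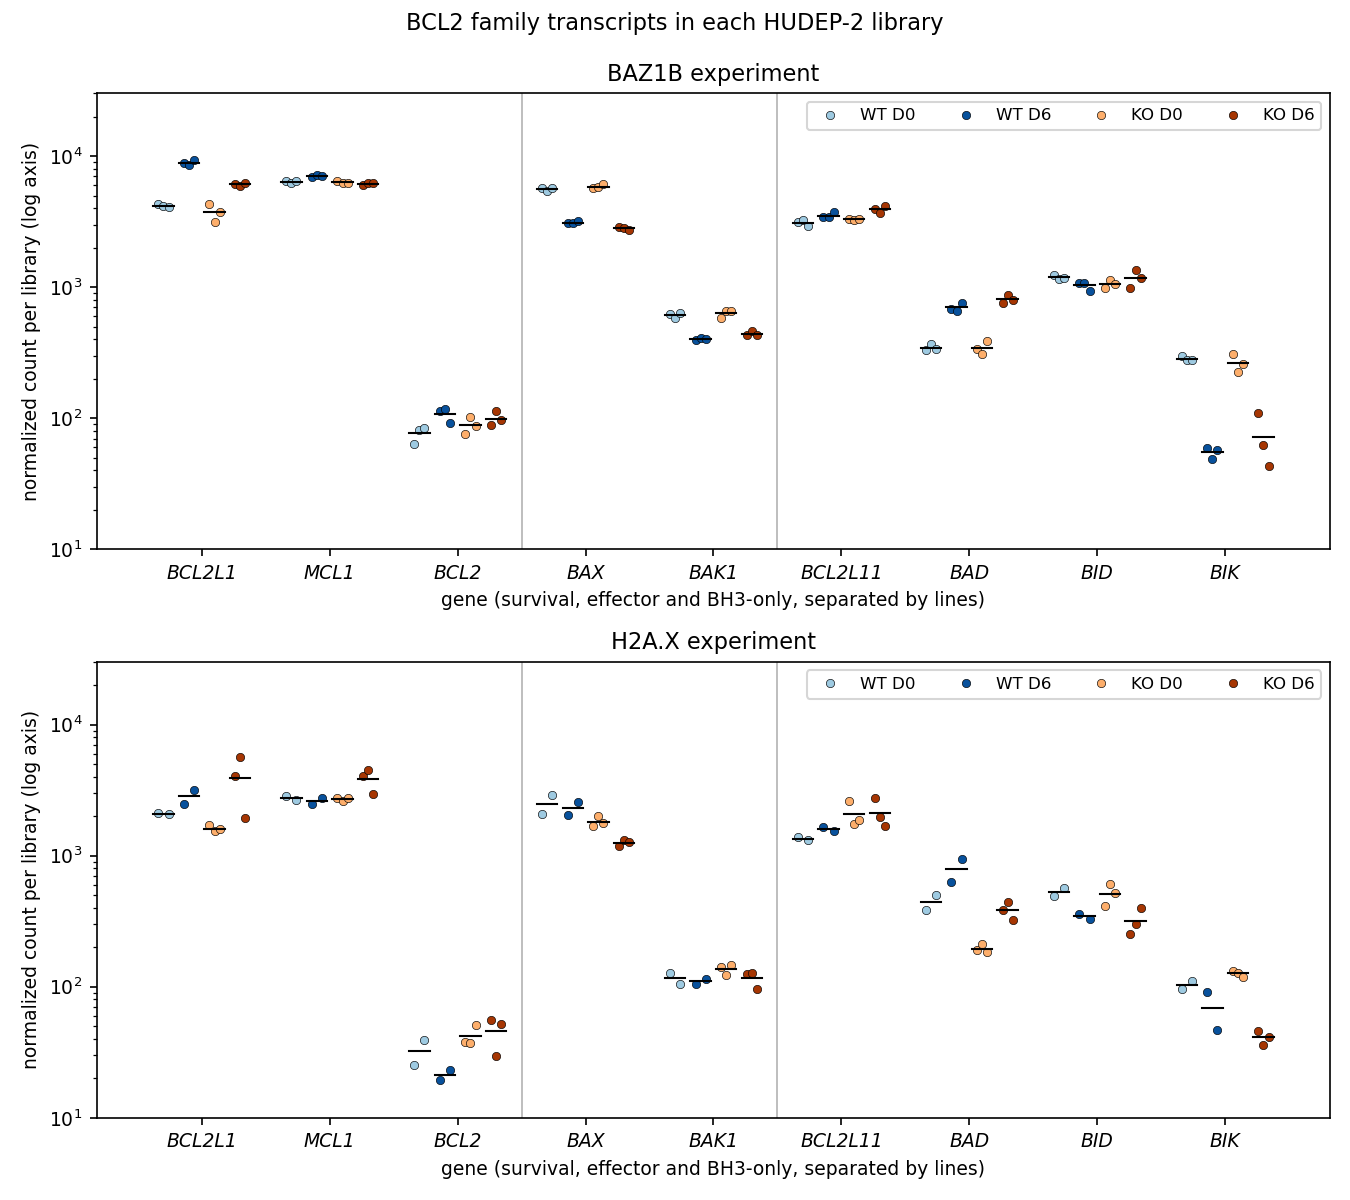
Normalized count of each BCL2 family gene in every library (log axis, gene on the horizontal axis, 1 panel per experiment), with WT and KO at D0 and D6 as points. In the BAZ1B panel the D6 points of BCL2L1 and BAD lie above and those of BAX, BAK1 and BIK below the D0 points in both genotypes; counts of different genes are not corrected for length.

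The genes that rose or fell with the day in both genotypes of the BAZ1B experiment include BCL2L1, BAD, BAX and BAK1, and their promoters are shown because these members moved together, in opposite directions, between the days. Each line gives the 250 bases before the RefSeq transcription start on the gene's own strand, 5′ to 3′, from the RefSeq table for GRCh38.p14, which held promoters for 8 of the 10 members (14 windows). Capitals mark matches, on either strand, to GATAA (the core that factors such as GATA1 bind), CACGTG (a palindromic E-box) or TTCNNNGAA (the STAT5 core), motifs chosen after the sequences had been seen. The windows lie at chr20:31723964-31724213 on the minus strand for BCL2L1, which has 2 windows, chr19:48954625-48954874 on the plus strand for BAX, chr6:33580277-33580526 on the minus strand for BAK1 and chr11:64284705-64284954 on the minus strand for BAD, also with 2.
BCL2L1: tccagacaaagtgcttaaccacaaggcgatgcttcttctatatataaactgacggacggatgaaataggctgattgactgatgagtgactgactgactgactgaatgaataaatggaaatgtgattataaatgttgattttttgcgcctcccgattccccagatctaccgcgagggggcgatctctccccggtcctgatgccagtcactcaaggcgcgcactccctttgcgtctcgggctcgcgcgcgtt
BAX: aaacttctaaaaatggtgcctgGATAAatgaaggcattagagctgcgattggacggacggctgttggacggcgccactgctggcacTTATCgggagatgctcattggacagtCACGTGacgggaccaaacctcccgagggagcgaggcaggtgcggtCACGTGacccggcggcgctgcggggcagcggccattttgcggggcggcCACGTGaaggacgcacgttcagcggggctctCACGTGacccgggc
BAK1: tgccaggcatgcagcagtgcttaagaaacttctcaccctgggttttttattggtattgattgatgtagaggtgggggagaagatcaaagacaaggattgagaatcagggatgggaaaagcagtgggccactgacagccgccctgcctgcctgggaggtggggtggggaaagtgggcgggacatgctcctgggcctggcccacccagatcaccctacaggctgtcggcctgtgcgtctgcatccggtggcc
BAD: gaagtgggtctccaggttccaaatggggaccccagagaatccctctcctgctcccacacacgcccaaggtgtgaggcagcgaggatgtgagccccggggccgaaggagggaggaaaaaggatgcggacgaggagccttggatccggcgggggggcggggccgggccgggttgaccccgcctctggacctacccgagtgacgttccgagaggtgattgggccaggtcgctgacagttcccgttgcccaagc
The BAX window holds CACGTG 4 times, at 132, 87, 39 and 8 bases before the start, and GATAA 2 times, at 223 and 159 bases. Of 34943 distinct windows of this length, 6.32% held CACGTG at least once and 5 windows (0.0143%) held it 4 or more times, while 20.5% held GATAA and 6.56% TTCNNNGAA. No match to the 3 motifs was found in the 2 windows of BCL2L1, the 2 of BAD, or those of BAK1, BCL2L11 and BCL2. BID had CACGTG in 2 and GATAA in 3 of its 5 windows, but these windows overlap and share 1 stretch for each motif. BCL2A1 had 1 TTCNNNGAA. The matches describe these letters only, and some starts differ from those of the GENCODE annotation, which begins BAX inside the window shown.

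The first comparison asked which members changed as normal cells matured, D6 against D0 in BAZ1B WT. Of the 9 tested members, 5 rose (BCL2, BCL2L1, MCL1, BCL2L11 and BAD) and 3 fell (BAX, BAK1 and BIK) at an edgeR adjusted p below 0.05, and BID did not pass. Of all 13879 genes tested, 68.9% passed (33.5% higher and 35.4% lower), so the members' count is close to this background. The libraries of both days did not overlap for any of the 9 members, as for 78.0% of all genes. The median log2 fold change of the members was 0.15 and that of all genes -0.02. In such bulk samples a smaller share of cells that carry a transcript and less of it per cell cannot be told apart, and the erythroid markers rose from 6512 to 7268 CPM at D0 to between 38802 and 44576 CPM, while those of mast cells and eosinophils fell from 467 to 508 CPM to between 30.0 and 40.8 CPM. The part of these shifts in the members' changes was not tested.

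BCL2L1 (chromosome 20, 31664452 to 31723989, minus strand in GRCh38), the source of BCL-XL, had 4284, 4156 and 4107 normalized counts in WT at D0 and 8784, 8517 and 9390 at D6, counts scaled to a common library size within the experiment. All D6 libraries lay above all D0 libraries by a wide gap. The rise was 2.13-fold (log2 1.09 ± 0.08, SE, adjusted p = 9.32e-08). MCL1 (chromosome 1, 150560895 to 150579738, minus strand), whose short-lived protein restrains BAK and BIM, had 6431, 6240 and 6419 normalized counts at D0 and 6952, 7196 and 7080 at D6. The groups did not overlap, but the rise was small, 1.11-fold (log2 0.15 ± 0.03, adjusted p = 0.000914). BCL2 (chromosome 18, 63123346 to 63320128, minus strand), the founding member, was rare, with 64.0, 81.0 and 84.6 normalized counts at D0 and 114, 118 and 92.7 at D6. Its rise of 1.41-fold (log2 0.49 ± 0.17, adjusted p = 0.0227) did not pass without replicate 1 of D0 (log2 0.38, adjusted p = 0.0946), without replicate 1 of D6 (0.46, 0.0658) or without replicate 2 of D6 (0.44, 0.0741).

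Both effectors fell. BAX (chromosome 19, 48954815 to 48961798, plus strand) had 5675, 5457 and 5728 normalized counts in WT at D0 and 3068, 3059 and 3179 at D6. The libraries of each day were tight, and the fall was 1.81-fold (log2 -0.86 ± 0.04, adjusted p = 8.91e-10). BAK1 (chromosome 6, 33572547 to 33580293, minus strand), the gene of the effector BAK, had 619, 583 and 640 normalized counts at D0 and 396, 410 and 405 at D6, a fall of 1.52-fold (log2 -0.61 ± 0.07, adjusted p = 8.29e-06). Reads of BAK1 could also come from its pseudogenes BAK1P1 and BAK1P2, which the counts cannot separate.

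The BH3-only genes did not move as a group. BIK (chromosome 22, 43110750 to 43129712, plus strand), whose protein acts at the endoplasmic reticulum, had 296, 280 and 276 normalized counts in WT at D0 and 59.1, 48.7 and 57.4 at D6. This fall of 5.14-fold (log2 -2.36 ± 0.26, adjusted p = 3.16e-06) was the largest change among the members in this comparison, and BIK alone met a stricter rule, with adjusted p under 0.001 and a log2 change beyond 1.5 in size, which 11.7% of all genes met. BAD (chromosome 11, 64269830 to 64284704, minus strand), whose protein binds BCL-XL unless growth factor signals keep it phosphorylated, went the other way, with 332, 365 and 339 normalized counts at D0 and 685, 653 and 762 at D6, a rise of 2.03-fold (log2 1.02 ± 0.10, adjusted p = 7.27e-07). BCL2L11 (chromosome 2, 111119378 to 111168444, plus strand), the gene of BIM, had 3142, 3241 and 2902 normalized counts at D0 and 3403, 3435 and 3717 at D6. Its groups did not overlap either, and the rise was 1.14-fold (log2 0.19 ± 0.05, adjusted p = 0.0079). BID (chromosome 22, 17734138 to 17774770, minus strand), which links death receptors and caspase 8 to the mitochondrion, had 1244, 1159 and 1178 normalized counts at D0 and 1080, 1083 and 931 at D6 (log2 -0.21 ± 0.10, adjusted p = 0.0777). Exons of BAD, BCL2L11, BCL2L1, MCL1 and BAK1 overlap those of genes on the opposite strand, most for BCL2L1 with the long noncoding RNA ABALON (1735 bp), and whether the counting used strand is not certain from the sources used here.

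**Figure D2:**
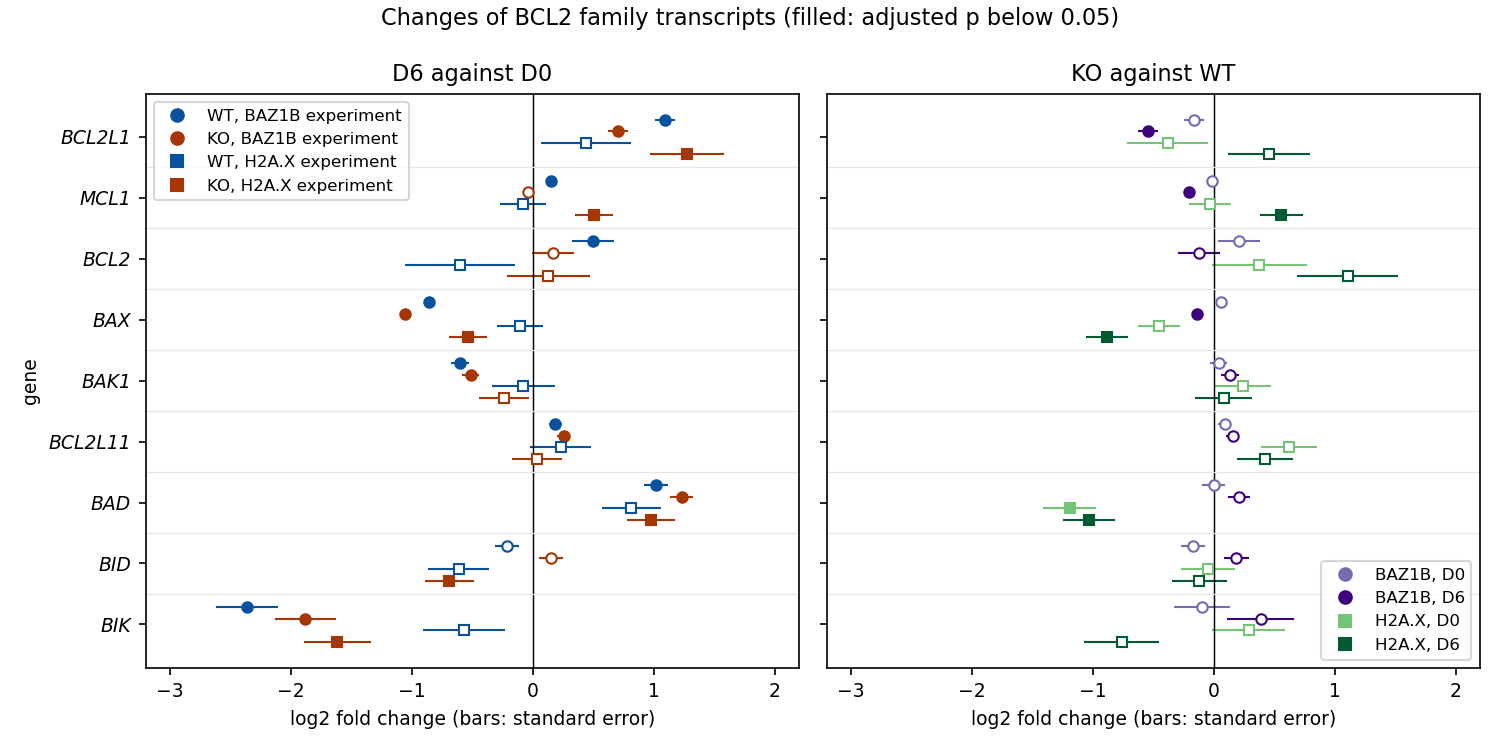
Log2 fold change of each tested member (points) with its standard error (bars), with the day comparisons in 1 panel and KO against WT in the other. Circles mark the BAZ1B and squares the H2A.X experiment, filled where the adjusted p was below 0.05. In the BAZ1B experiment BIK lies farthest left and BCL2L1 and BAD farthest right in the day comparisons, and the KO effects are small beside them.

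In BAZ1B KO the same comparison of days called 6 of the 9 members, with BCL2L1, BCL2L11 and BAD higher and BAX, BAK1 and BIK lower, against 67.7% of all genes (33.2% higher and 34.5% lower). The days did not overlap for 7 members and for 68.0% of all genes. The median log2 fold change of the members was 0.15 and that of all genes -0.02. BCL2L1 had 4304, 3157 and 3768 normalized counts at D0 and 6103, 5955 and 6272 at D6. Every D6 library was above every D0 library, but the D6 level stayed under that of all 3 WT libraries, and the rise was 1.63-fold (log2 0.71 ± 0.08, adjusted p = 6.22e-06). BAX had 5717, 5761 and 6075 normalized counts at D0 and 2901, 2826 and 2711 at D6, a fall of 2.08-fold (log2 -1.06 ± 0.04, adjusted p = 1.87e-10). BAK1 had 583, 653 and 661 normalized counts at D0 and 431, 465 and 432 at D6 (log2 -0.51 ± 0.07, adjusted p = 3.66e-05).

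BIK had 311, 227 and 260 normalized counts in BAZ1B KO at D0 and 110, 62.7 and 42.9 at D6, a fall of 3.68-fold (log2 -1.88 ± 0.25, adjusted p = 2.11e-05) that again met the stricter rule, as 11.5% of all genes did. Its D6 libraries were scattered, with replicates 1 and 2 above and replicate 3 below all 3 WT libraries. BAD had 338, 311 and 390 normalized counts at D0 and 759, 872 and 803 at D6, a rise of 2.35-fold (log2 1.23 ± 0.10, adjusted p = 1.28e-07). BCL2L11 rose 1.19-fold, from 3314, 3234 and 3337 normalized counts to 3964, 3680 and 4146 (log2 0.25 ± 0.05, adjusted p = 0.000955). MCL1 had 6452, 6204 and 6255 normalized counts at D0 and 6029, 6199 and 6185 at D6 (log2 -0.04 ± 0.03, adjusted p = 0.307), without overlap of the groups. BCL2 (log2 0.17 ± 0.17, adjusted p = 0.419) and BID (0.15 ± 0.10, 0.203) did not pass.

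**Figure D3:**
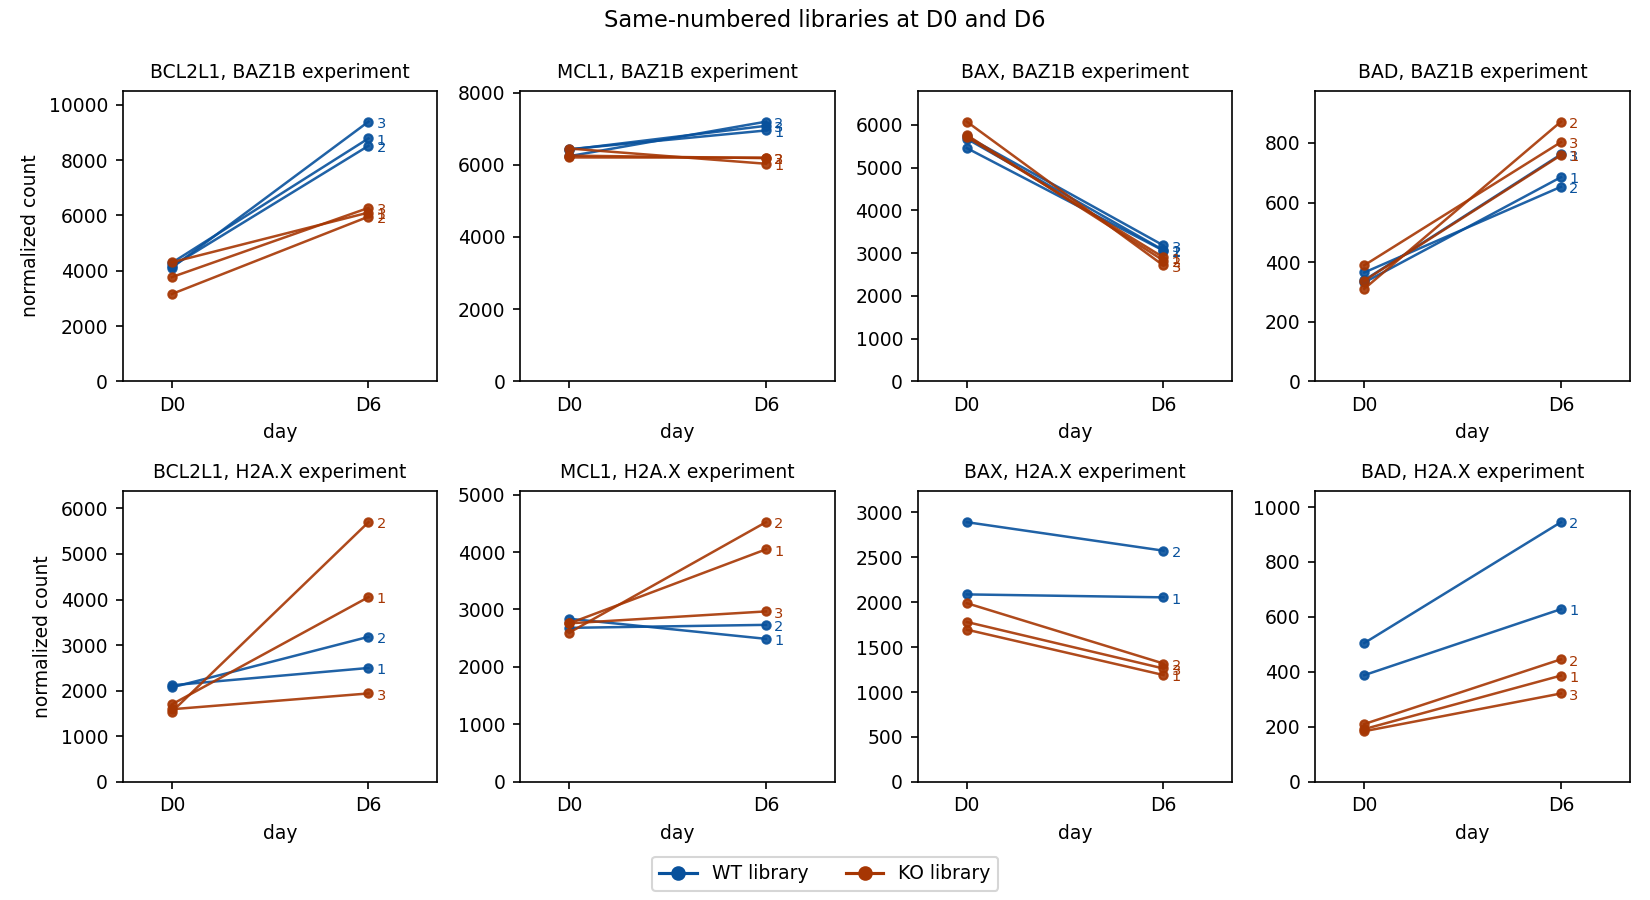
Normalized counts of BCL2L1, MCL1, BAX and BAD at D0 and D6 (day on the horizontal axis), with a line joining libraries of the same genotype and number, for both experiments. Each of the 6 lines of BCL2L1 in the BAZ1B experiment climbs, to between 8517 and 9390 in WT and between 5955 and 6272 in KO, whereas in the H2A.X experiment KO replicate 3 climbs only from 1593 to 1939.

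The loss of BAZ1B was compared with WT at each day. At D0 no member passed (0 of 9, with 3.88% of all genes passing), and 0 did so at an unadjusted p below 0.05 or by DESeq2. BCL2L1 was at log2 -0.16 ± 0.08 (adjusted p = 0.386) and passed without KO replicate 1 of D0 (-0.28, 0.0192) and with no filter on low counts (-0.16, 0.0426), whereas without KO replicate 2 it was at -0.05 (0.738). The log2 differences ran from -0.17 for BID to 0.21 for BCL2, and BID alone had no overlap of its groups, with 982 to 1136 normalized counts in KO and 1159 to 1244 in WT, against 22.5% of all genes without overlap. At D6 BCL2L1, MCL1 and BAX were lower in KO, against 12.8% of all genes (6.87% higher and 5.97% lower), and no member was higher. The median log2 fold change of the members at D6 was 0.13 and that of all genes -0.0037. BCL2L1 was 1.46-fold lower (log2 -0.54 ± 0.08, adjusted p = 0.000915), as its 3 KO libraries at 5955 to 6272 and 3 WT libraries at 8517 to 9390 normalized counts show. MCL1 was 1.15-fold lower, with 6029 to 6199 normalized counts in KO and 6952 to 7196 in WT (log2 -0.21 ± 0.03, adjusted p = 0.0012). Both major survival genes were therefore lower in KO at D6, each without overlap of its groups. The groups of 4 members in all, with BAX and BAK1, and of 30.8% of all genes did not overlap. BAX was 1.10-fold lower (log2 -0.14 ± 0.04, adjusted p = 0.0324), but this call was lost when any of 5 of the 6 D6 libraries was left out, all but KO replicate 1, with adjusted p from 0.0504 to 0.0943.

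The 6 other tested members did not pass at D6. BCL2L11 had 3680 to 4146 normalized counts in KO and 3403 to 3717 in WT (log2 0.16 ± 0.05, adjusted p = 0.0724), and without KO replicate 2 of D6 it passed (0.20, 0.0329). BAD was at log2 0.21 ± 0.09 (adjusted p = 0.169), BID at 0.19 ± 0.10 (0.264; 0.2998 and 0.044 without KO replicate 1 of D6, 0.07 and 0.709 without KO replicate 2), BAK1 at 0.13 ± 0.07 (0.287), BIK at 0.39 ± 0.27 (0.411) and BCL2 at -0.12 ± 0.17 (0.718). BAK1 had no overlap of its groups, 431 to 465 in KO and 396 to 410 in WT. Erythroid markers took 32748 to 38689 CPM in KO and 38802 to 44576 CPM in WT at D6, with 5 of 12 lower in KO, HBA1, HBA2, HBG1, HBG2 and SLC4A1. Whether this has a part in the lower BCL2L1 was not tested.

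The KO effect at D6 was then tested against that at D0. MCL1 was the only member to pass, with a difference of -0.19 ± 0.05 on the log2 scale (adjusted p = 0.0474), against 2.47% of all genes (1.58% higher and 0.893% lower). It lay close to the threshold and was lost when any of the 12 libraries was left out, at adjusted p of 0.0531 to 0.157, and with subclone as a block (-0.19, 0.0662). The corresponding difference was -0.38 ± 0.12 for BCL2L1 (adjusted p = 0.114). With the same block BCL2L1 (log2 -0.37, adjusted p = 0.0398) and BID (0.36, 0.0493) passed, and for BCL2L1 without KO replicate 2 of D0, the KO library lowest in it, the difference was -0.49 (adjusted p = 0.00784). The block also joined the WT libraries by number, and these did not meet the rule for a subclone given below. BAX was at -0.20 ± 0.05 (adjusted p = 0.0838) and passed without KO replicate 1 of D0 (-0.21, 0.0463). Whether the change of the KO effect on BCL2L1 between the days was called thus depended on the setting and on KO replicate 2 of D0.

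The H2A.X experiment gave the same comparisons with fewer and shallower libraries. The biological coefficient of variation was 0.239, against 0.0865 in the BAZ1B experiment. In H2A.X WT, no member passed between D6 and D0 (0 of 9), where 2.0% of all 13236 genes did, while 6 members and 51.3% of all genes had no overlap of the days. At an unadjusted p below 0.05, BAD and BID stood out. BAD had 388 and 505 normalized counts at D0 and 628 and 945 at D6 (log2 0.81 ± 0.24, adjusted p = 0.104). With subclone as a block it passed (log2 0.80, adjusted p = 0.0284), as it did by DESeq2 (0.80, 0.044), so that DESeq2 called 1 member. BCL2L1 had 2119 and 2071 normalized counts at D0 and 2498 and 3182 at D6 (log2 0.44 ± 0.37, adjusted p = 0.542). None of the 12 erythroid markers passed in this comparison, and their summed level ran from 24096 to 33358 CPM at D0 and from 38071 to 64652 CPM at D6.

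In H2A.X KO, 6 of 9 members passed between the days, BCL2L1, MCL1 and BAD higher and BAX, BIK and BID lower, against 30.9% of all genes (14.8% higher and 16.1% lower). These 6 had no overlap of the days, as had 48.8% of all genes. The median log2 fold change was 0.03 for the members and 0.02 for all genes. BCL2L1 had 1699, 1536 and 1593 normalized counts at D0 and 4053, 5698 and 1939 at D6. The D6 libraries lay above the D0 libraries but far from each other, and the rise was 2.42-fold (log2 1.28 ± 0.31, adjusted p = 0.011), 1.62 without replicate 3 of D6 (0.000174) and 0.90 without replicate 2 of D6 (0.0358). MCL1 had 2758, 2598 and 2759 normalized counts at D0 and 4047, 4520 and 2967 at D6, again with replicate 3 lowest, a rise of 1.42-fold (log2 0.51 ± 0.16, adjusted p = 0.0321) that was 0.68 without that library (0.00173). BAD had 192, 210 and 184 normalized counts at D0 and 387, 446 and 321 at D6, a rise of 1.97-fold (log2 0.98 ± 0.20, adjusted p = 0.00508). Its lowest D6 library stood well above its highest D0 library.

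BAX had 1694, 1989 and 1780 normalized counts in H2A.X KO at D0 and 1189, 1317 and 1262 at D6, a fall of 1.45-fold (log2 -0.54 ± 0.15, adjusted p = 0.025). BIK had 133, 128 and 119 normalized counts at D0 and 45.9, 36.1 and 41.5 at D6, a fall of 3.07-fold (log2 -1.62 ± 0.28, adjusted p = 0.00213). Both genes fell in all 3 same-numbered pairs of libraries. BID had 413, 607 and 520 normalized counts at D0 and 254, 299 and 402 at D6, a fall of 1.61-fold (log2 -0.69 ± 0.20, adjusted p = 0.0265). BAK1 (log2 -0.24 ± 0.21), BCL2 (0.13 ± 0.34) and BCL2L11 (0.03 ± 0.20) did not pass. The calls of MCL1, BAX and BID were lost when some single libraries were left out: MCL1 without any KO library other than replicate 3 of D6 (adjusted p from 0.0795 to 0.111), BID without replicates 2 or 3 of D0 or 1 or 2 of D6 (0.078 to 0.112), and BAX without replicates 2 or 3 of D0 or 1 of D6 (0.0667 to 0.0974). Erythroid markers rose from between 12179 and 16248 CPM to between 43476 and 72650 CPM over the same days, and those of mast cells and eosinophils fell from between 209 and 419 CPM to between 3.08 and 13.5 CPM.

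The loss of H2A.X was compared with WT at each day. At D0, BAD alone passed, lower in KO, against 35.1% of all genes (18.4% higher and 16.7% lower). Its 192, 210 and 184 normalized counts in KO lay below the 388 and 505 in WT, a 2.28-fold difference (log2 -1.19 ± 0.22, adjusted p = 0.00685), and without WT replicate 2 of D0 it was -0.99. BCL2L11 had 2609, 1756 and 1885 normalized counts in KO and 1383 and 1320 in WT (log2 0.62 ± 0.23, adjusted p = 0.0592). BAX had 1694, 1989 and 1780 in KO and 2087 and 2891 in WT (log2 -0.45 ± 0.17, adjusted p = 0.0632). Neither pair of groups overlapped, nor did those of BAD, BCL2L1 and BIK, against 70.3% of all genes without overlap. BAX was at -0.67 without WT replicate 1 of D0, and between -0.67 and -0.20 over all fits with 1 library left out. Leaving out a WT library leaves 1 at D0, so calls of those fits are not given. BCL2L1 was at log2 -0.38 ± 0.33 (adjusted p = 0.391) and MCL1 at -0.03 ± 0.17 (0.908).

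At D6, MCL1 was higher and BAX and BAD were lower in H2A.X KO, 3 of 9 members against 43.1% of all genes (22.2% higher and 20.9% lower). The median log2 fold change of the members was 0.08 at D6 and -0.03 at D0, and that of all genes -0.0062 and 0.01. MCL1 had 4047, 4520 and 2967 normalized counts in KO and 2489 and 2733 in WT, a 1.47-fold difference (log2 0.56 ± 0.18, adjusted p = 0.0276), and 0.75 (0.0015) without KO replicate 3. BAX had 1189, 1317 and 1262 normalized counts in KO and 2054 and 2573 in WT, 1.84-fold lower (log2 -0.88 ± 0.17, adjusted p = 0.00478). The groups of 6 members and of 63.3% of all genes did not overlap. BAD had 387, 446 and 321 normalized counts in KO and 628 and 945 in WT, 2.04-fold lower (log2 -1.03 ± 0.22, adjusted p = 0.00584). Without WT replicate 2 of D6, MCL1 was at log2 0.66, BAX at -0.68 and BAD at -0.68, and without WT replicate 1 MCL1 was at 0.51. Either step leaves 1 WT library at that day, so calls of these fits are not given. The call of MCL1 was lost without KO replicates 1 (0.52, adjusted p = 0.0697) or 2 (0.42, 0.0763) of D6.

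BCL2L1 had 4053, 5698 and 1939 normalized counts in H2A.X KO and 2498 and 3182 in WT at D6, so that 2 KO libraries lay above and 1 below both WT libraries (log2 0.46 ± 0.34, adjusted p = 0.294). Without KO replicate 3 of D6, the library that stood apart, it was 0.81 (adjusted p = 0.00567), and BCL2L11 passed too (0.61, 0.0396). Without KO replicate 2 of D6, in contrast, BCL2L1 was at 0.08 (0.85). BCL2 had 56.0, 29.5 and 52.1 normalized counts in KO and 19.4 and 23.3 in WT (log2 1.11 ± 0.42, adjusted p = 0.0545), and it passed without KO replicate 2 of D6 (1.34, 0.0289). BIK was at -0.76 ± 0.31 (adjusted p = 0.0705), BID at -0.12 ± 0.23 (0.693) and BAK1 at 0.08 ± 0.24 (0.791). The KO effect differed between the days for no member (0 of 9, with 1.34% of all genes passing), though MCL1 and BIK were under 0.05 unadjusted. Without KO replicate 3 of D6, BCL2L1 (1.201, adjusted p = 0.0254) and MCL1 (0.78, 0.0304) passed, and DESeq2 called 0.

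Transcript length moved with the H2A.X KO effect. Over 12013 genes with a known length, the log2 fold change of KO against WT and the length of the longest annotated transcript had a Spearman correlation of 0.4998 at D0 and 0.550 at D6, a description across genes of the same libraries. In the BAZ1B experiment it was -0.0269 and 0.0440 over 12404 genes. The members called lower in H2A.X KO have short transcripts, 1157 bp for BAD and 1358 bp for BAX, and MCL1, called higher in KO, has a long one of 4550 bp. The other tested members were not called. BIK, the shortest of those tested at 951 bp, was at log2 0.29 at D0 and -0.76 at D6. BCL2, the longest at 7461 bp, was at 0.38 and 1.11. After each library was corrected for length and GC content, a step chosen in view of these data, none of the 3 calls at D6 and not that at D0 remained: BAD was at log2 -0.54 (adjusted p = 0.0731) at D0 and 0.26 (0.362) at D6, BAX at -0.04 (0.851) at D6 and MCL1 at 0.20 (0.393). All H2A.X KO libraries but replicate 3 of D6 were the ones marked redo, so at D0 this mark and the genotype cannot be told apart. At D6 the unmarked KO library had 321 normalized counts of BAD and 1262 of BAX, below both WT libraries like the marked ones, but 1939 of BCL2L1, below both WT libraries when the marked ones were above, and 2967 of MCL1, nearer to WT (2489 and 2733) than to the marked ones (4047 and 4520). Cell type markers moved with the genotype too. At D0, 9 of 12 erythroid markers were lower in KO (12179 to 16248 CPM against 24096 to 33358), 3 of 5 tested mast cell and eosinophil markers, CPA3, EPX and MS4A2, were higher (209 to 419 CPM against 104 to 140 for the whole list), and ITGA2B, the tested megakaryocyte marker, was higher (log2 2.39). At D6 the mast cell and eosinophil list took 3.08 to 13.5 CPM in KO and 145 to 232 in WT, with TPSAB1 and TPSB2 lower. The part of these markers in the members' differences was not tested. The day comparison within H2A.X WT had a Spearman correlation of -0.208 with length and 0.127 with GC content. BAD, short and rich in GC, ran there from log2 0.48 to 0.82 over the alternatives that kept all libraries. The day comparison within H2A.X KO was little touched, with a Spearman correlation of -0.0297 with length, and all 6 calls held after the correction, among them BCL2L1 (1.45, adjusted p = 0.00722), BAD (1.27, 0.000833), BIK (-1.59, 0.00372) and BAX (-0.47, 0.00784).

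**Figure D4:**
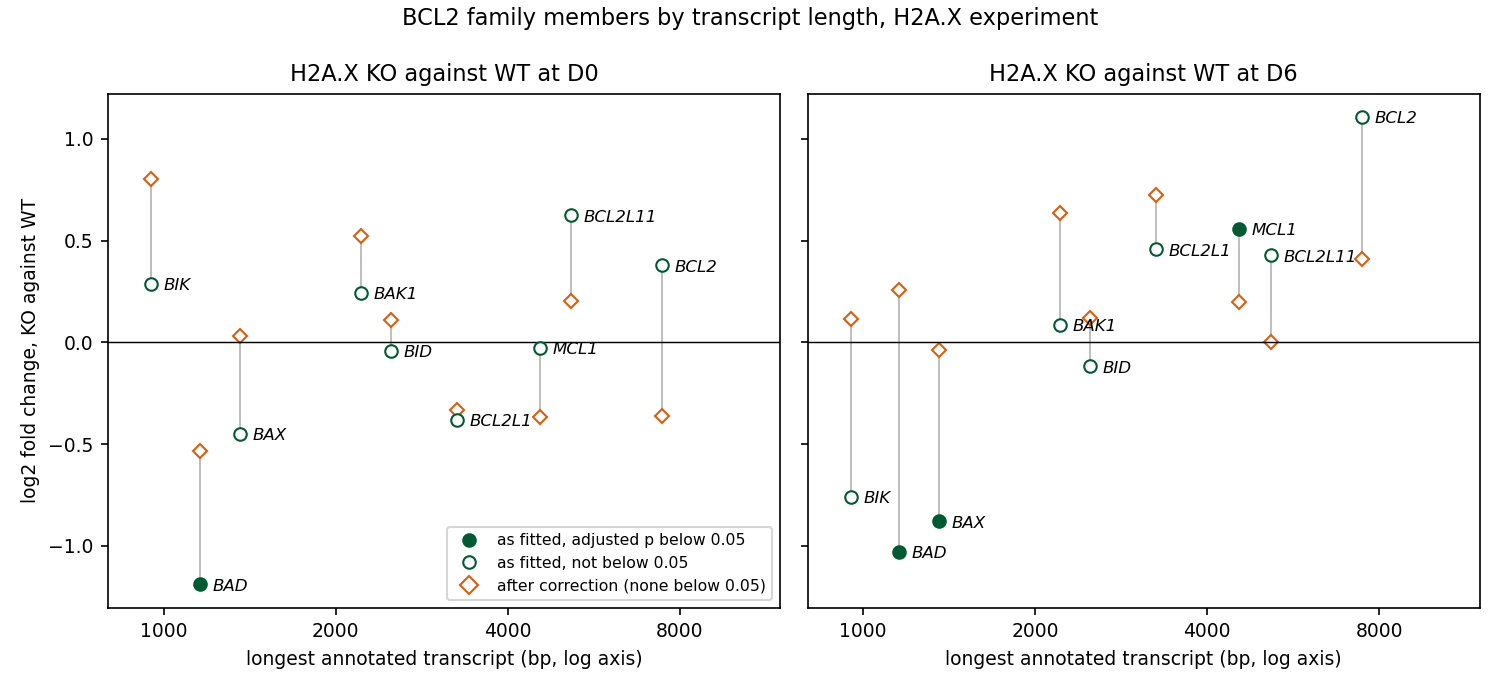
Log2 fold change of H2A.X KO against WT for the 9 tested members (vertical axis) by the length of the longest annotated transcript in bp (log axis), at D0 and D6, as fitted and after the correction for length and GC content. The short BAD and BAX lie below 0 as fitted and MCL1 above 0 at D6, while BIK, shorter still, lies above 0 at D0 and below 0 at D6. After the correction no member had an adjusted p below 0.05.

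The other genes of the pathway were counted from fixed lists. Of 13 further BCL2 family genes, 10 were tested, and between the days in BAZ1B WT 6 of them rose and 2 fell, with a median log2 fold change of 0.41. In this and the next lists, counts stand against the shares of all genes given above, here 68.9%, and a count near that share is no result about the list. BCL2L15, a proapoptotic relative, rose by log2 3.19 ± 0.35 (adjusted p = 3.56e-06), BMF, a BH3-only gene, by 1.80 ± 0.32 (0.00022), BBC3, the gene of PUMA, by 1.32 ± 0.09 (5.58e-08) and BNIP3, which acts in mitophagy, by 1.09 ± 0.23 (0.00104). BCL2L15 and BMF rest on few reads, with 1.83 to 6.89 and 17.4 to 31.7 normalized counts in WT at D0. In BAZ1B KO 6 rose and 0 fell (67.7% of all genes passed), led by BCL2L15 (3.08), BNIP3 (1.605), BMF (1.599) and BBC3 (1.13). There BCL2L15 had 1.88 to 3.21 and BMF 11.8 to 27.3 normalized counts at D0. In H2A.X KO 5 rose and 1 fell (all genes 30.9%), with the same 4 genes in the lead, BCL2L15 (3.01), BNIP3 (2.21), BMF (2.03) and BBC3 (1.58). BNIP3 had 393 to 1260 normalized counts there at D0 and 717 to 7914 at D6, with overlap of the days. BCL2L15 had only 0.822 to 3.43 at D0. In H2A.X WT, where 2.0% of all genes passed, 1 rose, PMAIP1, the gene of NOXA (0.98, adjusted p = 0.0426), and 1 fell, BOK, an effector relative (-1.91, 0.0352).

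Between genotypes, BNIP3L, which clears mitochondria from maturing red cells, was higher in BAZ1B KO at D6 (log2 0.46 ± 0.06, adjusted p = 0.000495), and PMAIP1 was lower (-0.39 ± 0.09, 0.0157), 2 of 10 genes against 12.8% of all. The KO effect on BNIP3L also differed between the days (0.39, adjusted p = 0.0431). At D0, 0 of 10 passed, against 3.88%. In H2A.X KO against WT, 3 of 10 were lower at D0 (35.1% of all genes passed), BOK (-1.09), BCL2L12 (-0.59) and PMAIP1 (-0.56), and at D6 (43.1%), 4 were higher and 2 lower, led by BMF (2.73), BCL2L15 (2.01), BNIP3L (1.15) and BCL2L12 (-0.83). At D6 BMF had 7.16 and 26.3 normalized counts in WT and 31.9 to 166 in KO. BCL2L15 had 3.43 and 3.58 in WT and 9.65 to 17.1 in KO, so both rest on few reads. The relation with length in this experiment covers these genes too.

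Downstream of the mitochondrion, 16 of 17 listed genes were tested. In BAZ1B WT, 4 rose and 7 fell with the day (median log2 fold change -0.12), 11 of 16 against 68.9% of all genes, led by APAF1, the scaffold of the apoptosome (log2 -1.12), BIRC6, an inhibitor of apoptosis (-0.85), VDAC1, a channel of the outer membrane (-0.84), and HTRA2, a mitochondrial protease (0.53). In BAZ1B KO, 5 rose and 5 fell (all genes 67.7%), with APAF1 at -1.20, VDAC1 at -0.81 and BIRC6 at -0.77. KO against WT in this experiment called APAF1 at D0 (0.30; all genes 3.88%) and 5 genes at D6 (all genes 12.8%), 3 higher, among them ENDOG (0.24), and 2 lower, CYCS, the gene of cytochrome c (-0.19), and HTRA2 (-0.18). In the H2A.X experiment 0 genes passed between the days in WT (all genes 2.0%) and 1 in KO (30.9%), VDAC1 (-0.83, adjusted p = 0.00196). H2A.X KO against WT called 3 genes higher and 5 lower at each day (all genes 35.1% at D0 and 43.1% at D6), with BIRC6 (2.32 at D0, 1.90 at D6), APAF1 (1.66, 1.63) and XIAP (1.33, 1.496) higher and ENDOG lower (-1.31, -1.65). The relation with length covers these genes as it does the members.

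Upstream, all 14 listed regulators were tested. In BAZ1B WT, 9 rose and 4 fell with the day (median log2 fold change 0.51), 13 of 14 against 68.9% of all genes: KIT, the receptor of SCF, fell (log2 -2.12), and EPOR, the receptor of EPO (1.71), FOXO3, a transcription factor that acts on BIM and PUMA (1.45), and JAK2, the kinase of EPOR (1.43), rose. In BAZ1B KO, 8 rose and 4 fell (all genes 67.7%), with the same genes in the lead, EPOR (1.64), KIT (-1.60), JAK2 (1.57) and FOXO3 (1.29). At D6 the BAZ1B KO cells had higher KIT (0.60) and lower DDIT3 (-0.50) and FOXO3 (-0.33) than WT, 3 of 14 against 12.8% of all genes, and at D0 0 of 14 passed against 3.88%. In the H2A.X experiment 0 passed between the days in WT (all genes 2.0%), and in KO 6 rose and 2 fell (30.9%), led by FOXO3 (2.31), KIT (-2.14), JAK2 (1.87) and EPOR (1.45). H2A.X KO against WT called 5 genes higher and 2 lower at each day (all genes 35.1% and 43.1%), with HUWE1, a ligase that degrades MCL1, at 2.09 and 1.67 and USP9X, which removes ubiquitin from MCL1, at 1.29 and 1.58, beside KIT (1.63) and GATA1 (-1.06) at D0 and FOXO3 (2.18) and JAK2 (1.91) at D6. The relation with length covers these genes too. Among those named, the longest transcript ran from 1529 bp for GATA1 to 14796 bp for HUWE1, and the part of length in these calls was not tested.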

How the data were processed

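RNA-Seq of HUDEP-2 cells gave 22 libraries in 2 experiments. The authors deposited raw counts of reads per gene name, 1 column per library, without normalization. The study's methods name STAR with hg38, and the submitters' processing notes also list STAR 2.7.0f, Subread 1.6.4 with featureCounts and DESeq2 1.22.1. The methods and the sample labels name different library kits, so the strand setting is uncertain. No per-sample column was left out. Of the names, 36434 matched the GRCh38 annotation directly and 753 by an older name; 299 were ambiguous and 21601 unmatched.

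Each experiment was fitted apart in R 4.3.3 with edgeR 4.0.16: filterByExpr (minimum count 10, minimum total 15), TMM, and a quasi-likelihood fit with 1 coefficient per genotype and day. Tests were two-sided, with Benjamini-Hochberg adjustment over all 13236 (H2A.X) or 13879 (BAZ1B) genes kept and a threshold of 0.05; limma 3.58.1, DESeq2 1.42.0 and Python 3.11.15 served the alternatives and tables. Normalized counts were scaled, within an experiment, to the mean TMM-adjusted library size. The fits were tested on simulated data. Intervals and limits from reads cover counting error only, since the reads carry no molecular identifiers.

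All 10 members are reported in each comparison, with values per library for those that passed in at least 1 comparison. From the other lists, at most the 4 largest changes that passed are named; a few that it would name are left out here. The members and lists were chosen with earlier results of these data known.

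Same-numbered libraries of D0 and D6 were taken as 1 subclone where their deviations from the group means correlated above 0.1: this held for the 5 pairs of H2A.X (0.306 to 0.606) and the 3 of BAZ1B KO (0.161 to 0.659), but not for BAZ1B WT (0.158, 0.0125 and 0.183). The subclone block of the alternatives was nevertheless fitted to all libraries of an experiment, BAZ1B WT included. KO and WT libraries of the same number were not taken as pairs. In the H2A.X experiment they correlated at 0.0671 and 0.0999 at D0 and at 0.196 and 0.213 at D6. In the BAZ1B experiment these values ran from -0.0461 to 0.185.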

Additional observations from a re-analysis of the deposited data

Results flagged for a closer look

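The effect of BAZ1B loss on MCL1 differed between D6 and D0 by -0.19 on the log2 scale, by edgeR's test of the difference itself (SE 0.05, adjusted p = 0.0474). MCL1 was 1.15-fold lower in KO at D6, in 3 of 3 KO libraries relative to every WT library, and at log2 -0.01 ± 0.03 at D0. The call was lost when any of the 12 libraries was left out, with subclone as a block (adjusted p = 0.0662), with no filter on low counts (0.217) and after the correction for length and GC content (0.0513).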

How the results depend on the processing

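The main tests called these numbers of members: in the H2A.X experiment 1 for KO against WT at D0, 3 at D6, 0 for the days in WT, 6 for the days in KO and 0 for the difference of KO effects, and in the BAZ1B experiment 0, 3, 8, 6 and 1. Of 421 values of called members under the alternatives, 354 kept direction and call, 64 lost the call and 3 turned; of 965 values of members not called, 919 stayed uncalled, 44 were called and 2 were called in the opposite direction. A difference that passed in neither fit was given no direction. With DESeq2 the counts were 2 for H2A.X KO against WT at D0, 1 for the days in H2A.X WT, 3 for the BAZ1B difference of KO effects, and 4 each for KO against WT at D6 in both experiments, where BCL2 (H2A.X) and BCL2L11 (BAZ1B) were added. With upper-quartile normalization H2A.X KO against WT had 2 at D0 and 4 at D6, where BIK was added. Its D0 count was 2 with no filter on low counts (BAZ1B D0 1, BAZ1B difference 2), and with the libraries of D0 alone 3. At an adjusted p below 0.01 the days in H2A.X KO had 2 and the BAZ1B difference 0. The correction for length and GC content left 0 in H2A.X KO against WT at D0, 0 at D6 and 0 in the BAZ1B difference. It turned BAD at D6 in H2A.X KO to 0.26, and MCL1 between the days in BAZ1B KO to 0.10. With a replicate block as well, a combination chosen after seeing the data, the correction called BIK for H2A.X at D0 and 1 member, BCL2L1, at D6. BAD was then at 0.49 and BAX at 0.048 at D6, neither of them called. With the subclone as the block, the correction gave 2 for the BAZ1B difference and MCL1 at 0.10 again. The replicate block between KO and WT libraries, which were not taken as pairs, gave 2 for H2A.X at D0 and 5 at D6. The subclone block gave 1 for the days in H2A.X WT and 2 for the BAZ1B difference, where MCL1 was at -0.19 (adjusted p = 0.0662), and 9 for the days in BAZ1B WT, where BID was added. Both BAZ1B counts rest on joined WT libraries that did not meet the rule for a subclone. The block changed no call between the days in either KO. Leaving out each library in turn gave 0 to 2 (H2A.X D0), 0 to 5 (H2A.X D6), 0 to 0 (days in H2A.X WT), 3 to 6 (days in H2A.X KO) and 0 to 2 (H2A.X difference), and in the BAZ1B experiment 0 to 1, 2 to 4, 7 to 8, 6 to 7 and 0 to 1. Over the same fits, 2641 to 4871 of all genes passed for the days in H2A.X KO. In the BAZ1B experiment it was 258 to 1323, 1112 to 1645, 8946 to 9114, 8876 to 9487 and 119 to 765, in the same order. The other H2A.X ranges include fits with 1 WT library left. For the remaining settings the share of all genes is not given, so a higher or lower count there is no result about the members. Over the longest transcript, BCL2L1 made up 63.5% of the survival genes' level in BAZ1B WT at D6, against 64.9% over all exons. The causes of these shifts were not tested. The standard error of BCL2L1 for KO against WT at D6 was 0.34 for the loss of H2A.X and 0.08 for that of BAZ1B, and BCL2 had 30 to 298 and BIK 106 to 962 reads summed over a group.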
